A study of Mus musculus with 3 samples.

Results

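A group of 10 genes that encode matricellular proteins and small proteoglycans were followed through the cells of the adult mouse lacrimal gland (LG). The genes were chosen by name, as the rows Ccn1, Ccn2, Thbs1, Sparc, Sparcl1, Fn1, Postn, Smoc2, Bgn and Dcn of the deposited count matrices, so they are 10 of the 32285 genes listed there. All 10 had UMIs (unique molecular identifiers, one per captured RNA molecule) and passed the filter on low counts in the comparison of classes. They were examined in 5 cell classes: myoepithelial cells (MECs), duct cells, fibroblasts, vascular mural cells and endothelial cells. MECs and duct cells are the epithelial classes meant below. Acinar cells and the lactoferrin-expressing (Ltf+) cells, which are also epithelial, were left out of the tests.

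The series holds single-cell RNA sequencing of dissociated LGs of C57BL/6J mice aged 2 months, with no transgene or treatment. There was 1 female library and 2 male libraries, each prepared from the glands of 3 pooled animals, so the spread between libraries is that of pools and, between the sexes, rests on 1 female pool. The glands were digested with enzymes at 37 °C and dead cells were removed on columns before capture. Classes were rebuilt from marker genes and are written as MEC-like, duct-like and so on, since no cell annotation was used here.

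Matricellular proteins are secreted into the matrix and act mainly on cells rather than as its building material: they bind integrins, growth factors and collagen and change adhesion, migration and repair. Small leucine-rich proteoglycans such as decorin and biglycan carry glycosaminoglycan chains, bind collagen fibrils and hold growth factors such as TGF-β. In exocrine glands the MECs, contractile epithelial cells that embrace acini and ducts, sit on the basement membrane, while fibroblasts fill the interstitium and mural cells wrap the vessels.

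Ccn1 encodes a secreted integrin ligand that is a textbook immediate early gene and a textbook target of the YAP and TEAD transcription factors. Its start region is shown because its level set both epithelial classes apart from the stromal ones. The level of Ccn2 did so as well, but start regions were at hand only for Ccn1, Sparc, Postn and Bgn. The 250 bases before its RefSeq start, chr3:145649986-145650235 on the minus strand of GRCm38.p6, are printed 5′ to 3′ with matches to the TEAD core (GGAATG, here read on the other strand as CATTCC) and to TATAAA in capitals.
Ccn1: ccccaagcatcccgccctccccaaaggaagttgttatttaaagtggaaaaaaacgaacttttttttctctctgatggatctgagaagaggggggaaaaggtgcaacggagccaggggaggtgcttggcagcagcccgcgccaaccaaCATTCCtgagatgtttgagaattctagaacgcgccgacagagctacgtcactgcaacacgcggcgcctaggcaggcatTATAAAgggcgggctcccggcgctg
The TEAD core began 103 bases and TATAAA 25 bases before the start. Neither letter string is rare: searched on both strands, the first was found in 12.6% and the second in 12.3% of 32536 distinct promoter windows of this length. No match to TGACTCA or TGACGTCA, in either orientation, or to the CArG box was found in the window. In the windows of Sparc, Postn and Bgn the TEAD core was not found, and TATAAA was found only in 1 Postn window.

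In the GENCODE annotation of the same build, Ccn1 lies at chr3:145646976-145649981 and Postn, for the adhesive protein periostin, at chr3:54361109-54391037. The other protein-coding members lie at chr10:24595442-24598683 (Ccn2), chr2:118111876-118127133 (Thbs1), chr11:55394500-55423183 (Sparc), chr5:104079111-104113733 (Sparcl1), chr1:71585520-71653200 (Fn1), chr17:14279506-14404790 (Smoc2), chrX:73483602-73495933 (Bgn) and chr10:97479609-97518143 (Dcn). None overlaps another annotated gene on its own strand. Fn1, Thbs1, Sparcl1, Ccn2 and Smoc2 each overlap a gene annotated on the opposite strand.

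After filtering, 7652 cells of the female pool and 5295 and 5397 cells of the male pools 1 and 2 remained, and the median depth per cell was 3252, 1884 and 1788 UMIs. The 5 classes held 938 MEC-like, 1703 duct-like, 2878 fibroblast-like, 148 mural-like and 1781 endothelial-like cells. Libraries shared 12 to 18 cell barcodes in pairs. A large part of the RNA in these cells came from free RNA, which is rich in acinar tear products: its share, estimated from empty droplets, was lowest in fibroblast-like cells of the female library (31.96%) and highest in mural-like cells of male library 2 (72.0%). Levels are therefore given as CPM, here the UMIs of a gene per 1000000 UMIs of genes other than tear products and mitochondrial genes, summed over the cells of a class in a library. Values that follow each other are in the order female, male 1, male 2, with means ± SD over n = 3 libraries. The 5 classes carried their defining markers. MEC markers summed to 15277 CPM in MEC-like cells, and mural-like cells, at 14237 CPM for the same list through shared contractile genes, had 4 of its 7 genes at 0. The p-values below rest on the spread left between these 3 pools after the library block. That spread was estimated jointly over the classes of a fit and drawn towards that of other genes. It is therefore not the spread of 1 gene in 1 pair of classes. For the endothelial subsets it was in effect that of all genes of like level.

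No class was highest for all members. The order of the class means was the same for Ccn2, Thbs1 and Postn, from MEC-like through duct-like, mural-like and fibroblast-like to endothelial-like cells. It was also the same for Sparc and Bgn, from fibroblast-like through mural-like, MEC-like and endothelial-like to duct-like cells. Not all neighbours in these orders differed beyond their spread over the libraries. For Ccn2, mural-like, fibroblast-like and endothelial-like cells did not, and for Thbs1, duct-like, mural-like and fibroblast-like cells did not. Neither did duct-like and mural-like cells for Postn, nor MEC-like and endothelial-like cells for Sparc. Fibroblast-like cells were highest for Sparc, Fn1, Bgn and Dcn. MEC-like cells were highest for Ccn2, Thbs1 and Postn, duct-like cells for Ccn1 and Smoc2, and mural-like cells for Sparcl1. In the tests between pairs of classes, 80 of 100 member comparisons were called, at an adjusted p under 0.05 in edgeR's quasi-likelihood test with the library as a block. Over all genes tested, the share called ran from 20.8% (MEC-like against mural-like) to 47.8% (fibroblast-like against endothelial-like) in the same comparisons.

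**Figure D1:**
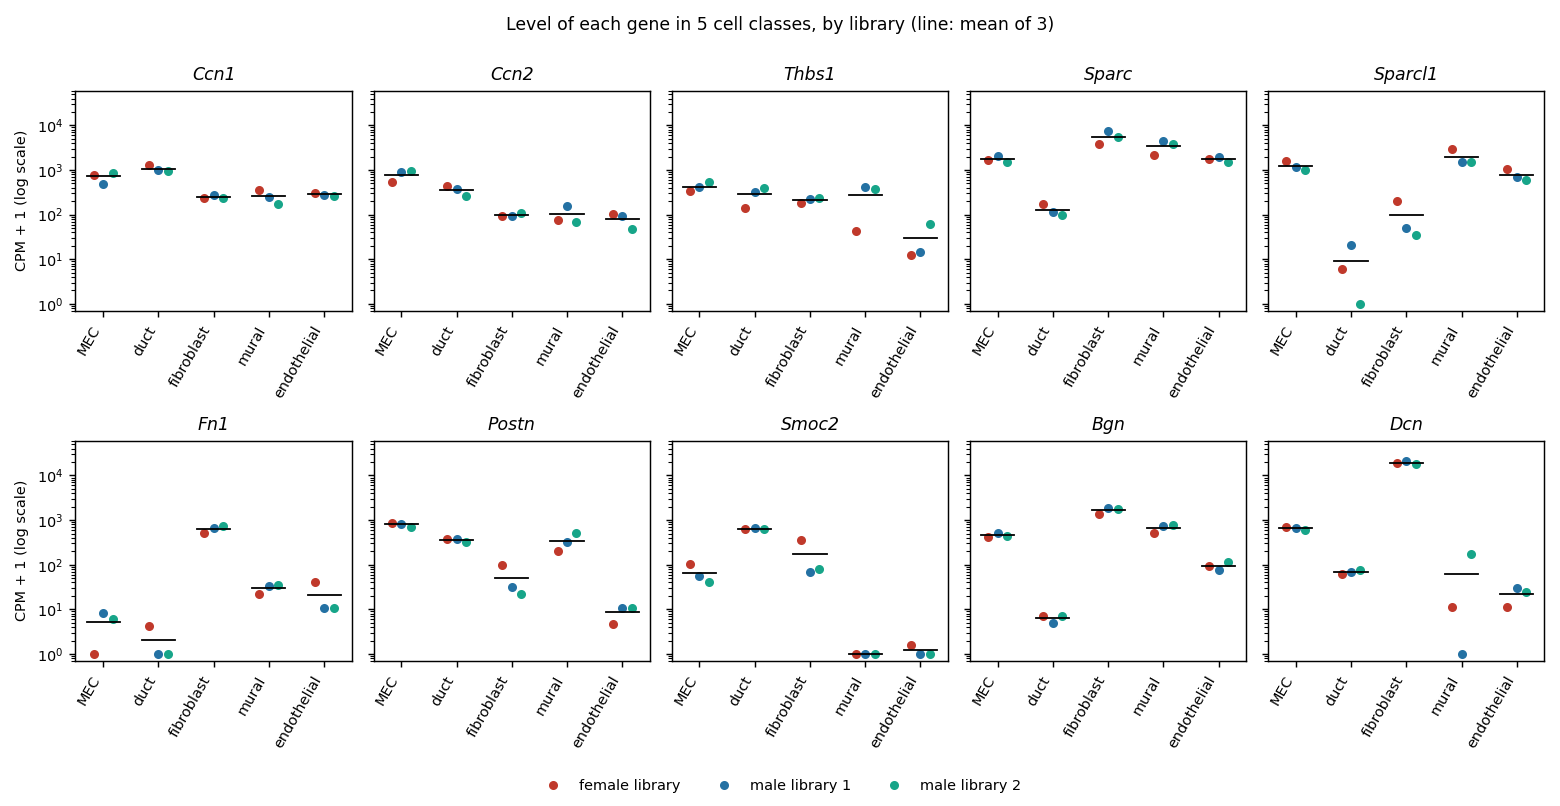
Level of each of the 10 genes (CPM + 1, log scale) in 5 cell classes, with 1 point per library and a line at the mean of 3. Dcn in fibroblast-like cells lies between 18310 and 20599 CPM in every library, and Smoc2 is at 0 in mural-like cells of all 3 libraries.

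The MEC-like class, the only one here that is both epithelial and contractile, was set against the other 4. Against duct-like cells, 7 members were higher and 2 lower in MEC-like cells, where 24.3% of 6925 genes tested were called, 12.4% as higher and 11.9% as lower. Against fibroblast-like cells, 5 were higher and 5 lower, with 41.6% of all genes called (19% higher, 22.6% lower). Against mural-like cells, 6 were higher and 1 lower, with 20.8% called (11.2% higher, 9.59% lower). Against endothelial-like cells 8 were higher and 1 lower, with 44.5% called (21.5% higher, 23% lower). The median log2 fold change of the members in these comparisons was 1.01, -0.36, 1.33 and 2.57, against medians over all genes of -0.02, -0.03, 0.18 and -0.04.

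**Figure D2:**
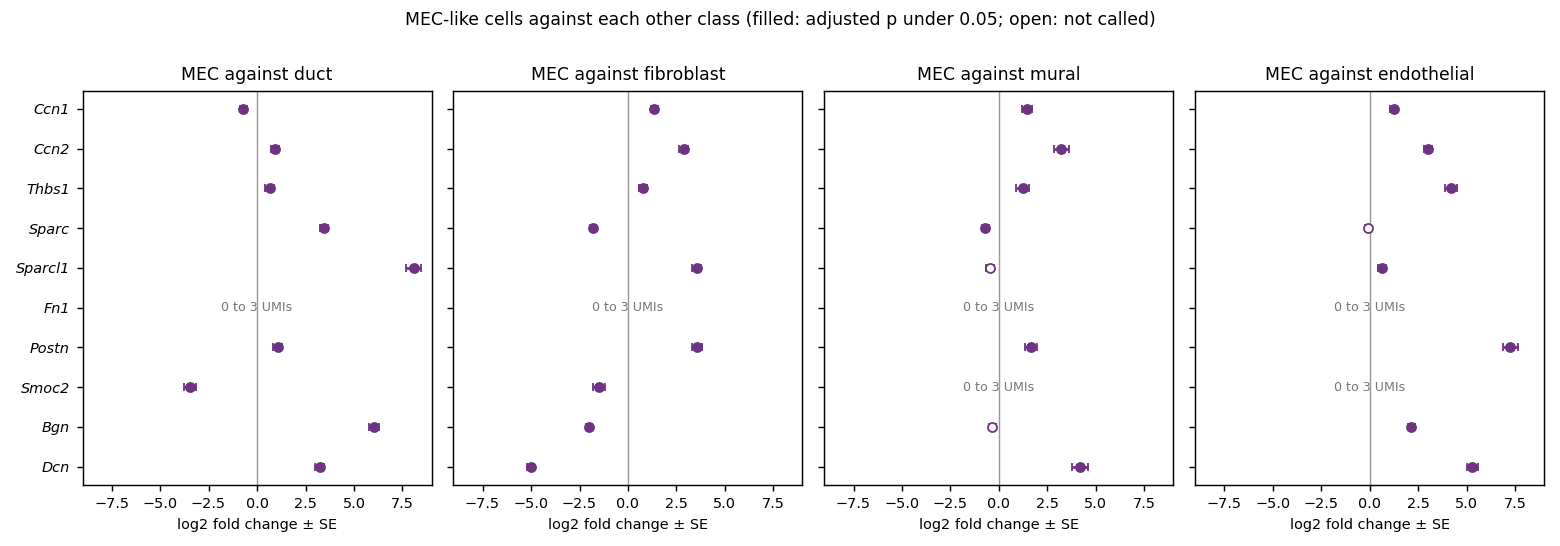
Log2 fold change ± SE of each gene in MEC-like cells against 4 other classes, from edgeR with a library block. Filled points passed an adjusted p of 0.05 and open points did not, and comparisons with 0 to 3 UMIs in one class are marked instead of drawn. Sparcl1 differed most from duct-like cells (8.07), whose level of it is not told apart from background, and was not called against mural-like cells.

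Ccn1 was high in both epithelial classes. It was measured at 782, 493 and 870 CPM in MEC-like cells and at 1261, 996 and 960.1 CPM in duct-like cells, the duct-like value being higher in each library. The mean was 1072 ± 165 CPM in duct-like cells, against 249 ± 20.0 in fibroblast-like, 260.4 ± 92.8 in mural-like and 282 ± 17.1 in endothelial-like cells, 3 classes that overlapped one another. Comparisons of mural-like cells with the other two were not called (0.08 for fibroblast-like against mural-like, -0.21 for mural-like against endothelial-like), but they were once more doublets were removed (1.27, adjusted p = 0.0108, and -1.49, adjusted p = 0.00186) and in cells under 5% mitochondrial UMIs (1.09, adjusted p = 0.0419, and -1.25, adjusted p = 0.00851), mural-like cells being the lower ones. MEC-like cells were below duct-like cells by -0.71 ± 0.17 on the log2 scale (adjusted p = 0.00133), and above fibroblast-like cells by 1.36 ± 0.18 (adjusted p = 4.52e-08). Duct-like cells exceeded fibroblast-like, mural-like and endothelial-like cells by 2.07, 2.15 and 1.94 on the same scale.

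The genes that enzymatic dissociation is known to induce were, as a sum, also higher in duct-like than in MEC-like cells. The 16 immediate early and dissociation genes, among them Fos, Atf3 and Klf6, summed to 39798 ± 2907 CPM in duct-like, 31412 ± 1093 in MEC-like, 20468 ± 1837 in fibroblast-like, 21414 ± 3904 in mural-like and 19415 ± 1266 in endothelial-like cells. Of the 16, 10 were lower and 1 was higher in MEC-like than in duct-like cells, with the largest differences for Klf6 (-1.55) and Ier2 (-1.27), both early response genes. In cells at or below the median share of these genes in their own class and library, the Ccn1 difference between MEC-like and duct-like cells was -0.04 (adjusted p = 0.974). Without male library 1 it was -0.55 (adjusted p = 0.0579), and without the library block -0.68 (adjusted p = 0.0857). Ccn1 is itself an immediate early gene, so a choice of cells by these genes also bears on its level. The choice did not match the classes in these genes, and the part of dissociation was not tested.

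Ccn2, which encodes the connective tissue growth factor of the same family, had the reverse order in MEC-like and duct-like cells. It stood at 542, 882 and 941 CPM in MEC-like cells and at 440.2, 371 and 255 CPM in duct-like cells, with no overlap between the classes. MEC-like cells were higher by 0.94 ± 0.20 (adjusted p = 0.000372). The stromal classes were lower, at 97.1 ± 7.8 CPM in fibroblast-like, 99.99 ± 50.02 in mural-like and 80.8 ± 29.1 in endothelial-like cells, and none of the comparisons among these 3 was called. The difference between MEC-like and mural-like cells was 3.22 ± 0.38 (adjusted p = 2.13e-08).

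Thbs1, for thrombospondin 1, a CD47 and CD36 ligand that activates latent TGF-β and restrains vessel growth, was highest in MEC-like cells with 330.2, 410.3 and 536 CPM. Duct-like cells had 138, 327 and 391 CPM, fibroblast-like cells 184, 223 and 230.1 CPM, and endothelial-like cells only 11.5, 13.2 and 62.0 CPM. MEC-like cells were above endothelial-like cells by 4.19 ± 0.31 (adjusted p = 8.6e-14), and fibroblast-like cells by 3.41 ± 0.31 (adjusted p = 1.4e-11). In mural-like cells Thbs1 split the libraries, at 42.0 CPM from 4 UMIs in the female library and 410 and 378 CPM in the male ones. The smaller differences of MEC-like cells from duct-like cells (0.65 ± 0.22, adjusted p = 0.0288) and from mural-like cells (1.22 ± 0.36, adjusted p = 0.0118) were not called without the female library (0.33, adjusted p = 0.268, and 0.47, adjusted p = 0.412), nor with DESeq2 (adjusted p = 0.461 and 0.144).

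Sparc, which encodes osteonectin, a collagen-binding protein of basement membranes and connective tissue, was present in 4 of the 5 classes and scarce in ducts. Fibroblast-like cells held 3753, 7580 and 5529 CPM and mural-like cells 2142, 4384 and 3817 CPM, the fibroblast-like value being higher in each library. MEC-like cells (1670, 2105 and 1517 CPM) and endothelial-like cells (1782, 1955 and 1497 CPM) were next, with a difference of -0.09 ± 0.17 (adjusted p = 0.721). Duct-like cells held 169, 113 and 94.8 CPM, below fibroblast-like cells by -5.28 ± 0.21 (adjusted p = 3.98e-21) and below MEC-like cells in every library. The order of mural-like over MEC-like cells (-0.70 ± 0.19, adjusted p = 0.00471) was not called without male library 2 (-0.47, adjusted p = 0.095). That of mural-like over endothelial-like cells (0.61 ± 0.18, adjusted p = 0.0105) was not called without either male library (0.50 and 0.35, adjusted p = 0.0778 and 0.229), nor with DESeq2 (adjusted p = 0.0568).

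Sparcl1, which encodes the anti-adhesive protein hevin, had its highest levels in contractile cells and its lowest in ducts. Mural-like cells had 2898, 1514 and 1513 CPM, MEC-like cells 1571, 1141 and 1017 CPM, and endothelial-like cells 1036, 694 and 582 CPM. In each library the order was mural-like, MEC-like, endothelial-like, and the difference between the first pair was not called (-0.46 ± 0.23 for MEC-like against mural-like, adjusted p = 0.173). Duct-like cells had 4.93, 20.2 and 0 CPM, from 14 UMIs in the female library, and the difference of MEC-like from duct-like cells was 8.07 ± 0.39 (adjusted p = 3.64e-18). In lymphoid-like cells, which should lack the gene, the mean was 2.08 ± 3.59 CPM.

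Smoc2, which encodes a secreted calcium-binding relative of SPARC, was highest in ducts and undetected or nearly so in vascular cells. Duct-like cells had 635.5, 653 and 634 CPM, and MEC-like cells 101, 54.0 and 40.5 CPM, a difference of -3.45 ± 0.32 for MEC-like cells (adjusted p = 1.2e-10). Fibroblast-like cells fell apart by library, at 365.5, 68.4 and 78.7 CPM. No UMI was found in mural-like cells of any library, so that with a floor of 3 UMIs over the class the level in duct-like cells was at least 33.1-fold higher. A single UMI was found in endothelial-like cells, where the ratio of duct-like to endothelial-like cells was 1380 with a 95% counting interval of 247 to 54518.

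Fn1 encodes fibronectin, an adhesive glycoprotein of the matrix that binds integrins. It was measured at 500.4, 659 and 742 CPM in fibroblast-like cells and at 21.0, 31.5 and 34.4 CPM in mural-like cells, the latter from 2, 1 and 1 UMIs, with a difference of 4.85 ± 0.52 (adjusted p = 2.93e-09). Endothelial-like cells had 40.5, 9.91 and 9.53 CPM. MEC-like cells yielded 3 UMIs in all and duct-like cells 9, and fibroblast-like cells exceeded MEC-like cells 228-fold with a 95% counting interval of 78 to 1107. Fn1 was called higher in endothelial-like than in MEC-like cells (adjusted p = 4.07e-05), but without the female library, which held 67 of the 72 endothelial UMIs, it was not called (adjusted p = 0.666).

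Postn encodes periostin, which binds integrins and collagen and is commonly used as a marker of activated fibroblasts. Here it was higher in MEC-like and duct-like cells than in fibroblast-like cells. MEC-like cells had 863, 835 and 703 CPM and duct-like cells 384, 383 and 314 CPM, against 100, 30.6 and 21.2 CPM in fibroblast-like cells, with no overlap between these classes. The difference of MEC-like from fibroblast-like cells was 3.55 ± 0.25 (adjusted p = 1.62e-14), and that of duct-like from fibroblast-like cells 2.48 ± 0.25 (adjusted p = 1.63e-10). Mural-like cells varied more, with 199.5, 315 and 516 CPM, and endothelial-like cells had 3.63, 9.91 and 9.53 CPM. MEC-like cells exceeded endothelial-like cells by 7.25 ± 0.39 (adjusted p = 2.07e-17) and mural-like cells by 1.64 ± 0.32 (adjusted p = 0.000181).

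Bgn encodes biglycan, a collagen-binding proteoglycan that also signals to immune cells when released. Fibroblast-like cells had 1367, 1913 and 1732 CPM, mural-like cells 515, 725 and 757 CPM, MEC-like cells 408, 504 and 450 CPM, and endothelial-like cells 91.3, 76.0 and 114 CPM. This order was the same in each library, and the difference of MEC-like from mural-like cells was not called (-0.33 ± 0.20, adjusted p = 0.267). Duct-like cells had 5.99, 4.03 and 5.93 CPM, from 19 UMIs in all. Lymphoid-like cells, which should lack the gene, had 2 UMIs in all, and the duct-like level is not told apart from background. MEC-like cells were above duct-like cells in each library, and no fold over that level is given.

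Dcn encodes decorin, which binds collagen fibrils and sets their spacing. It reached 18752, 20599 and 18310 CPM in fibroblast-like cells, and a UMI of it was found in 96.4% of these cells on average over the libraries after each cell was thinned to 500 UMIs, against 0.796% of lymphoid-like cells. MEC-like cells had 711, 659 and 587 CPM, below fibroblast-like cells by -5.01 ± 0.18 (adjusted p = 4e-22). They were above duct-like cells, at 60.6, 68.6 and 77.0 CPM, by 3.22 ± 0.22 (adjusted p = 2.65e-14). In MEC-like cells the 5 fibroblast markers (Col1a1, Col3a1, Pdgfra, Apod and Dpt) summed to 57.0 ± 23.3 CPM, against 16993 ± 3354 CPM in fibroblast-like cells. Endothelial-like cells had 10.3, 29.7 and 23.8 CPM, near the mean of 27.3 CPM in lymphoid-like cells. The call of duct-like over endothelial-like cells (2.06, adjusted p = 1.74e-06) was lost when free RNA was subtracted with the profile of barcodes with 10 to 100 UMIs (0.047, adjusted p = 1) and held with that of empty droplets. Mural-like cells had 10.5, 0 and 172 CPM of Dcn, from 6 UMIs in all, beside 473, 1829 and 1891 CPM of the fibroblast markers, of which 2 of 5 were at 0. The part of those markers in the mural-like levels was not tested.

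The remaining comparisons involve the stroma. Duct-like cells had 4 members higher and 5 lower than fibroblast-like cells, with 47.4% of genes called (21.9% higher, 25.4% lower). They had 3 higher and 3 lower than mural-like cells, with 25.8% called (14% higher, 11.8% lower), and 6 higher and 4 lower than endothelial-like cells, with 43.6% called (21.4% higher, 22.2% lower). Fibroblast-like cells had 5 higher (Sparc, Fn1, Smoc2, Bgn and Dcn) and 2 lower (Sparcl1 and Postn) than mural-like cells, with 22.8% called (14.2% higher, 8.69% lower), and 7 higher and 1 lower (Sparcl1) than endothelial-like cells, with 47.8% called (24% higher, 23.8% lower). Mural-like cells had 5 members higher and none lower than endothelial-like cells, with 26.3% of genes called (11.5% higher, 14.8% lower). Those 5 were Thbs1 (2.98 ± 0.52), Postn (5.61 ± 0.57), Sparcl1 (1.09 ± 0.23), Sparc (0.61 ± 0.18) and Bgn (2.48 ± 0.22), with adjusted p of 0.0105 or less. Without the library block, or with DESeq2, 3 members were called.

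The relatives of these genes were counted from lists of their families. Of 9 small leucine-rich proteoglycans tested beside Bgn and Dcn, all 9 were higher in fibroblast-like than in duct-like and than in endothelial-like cells. Lum, for lumican, was at 1849 ± 289.6 CPM in fibroblast-like cells and at 2.28 ± 2.07 CPM in duct-like cells. Against MEC-like cells 7 of the 9 were higher in fibroblast-like cells and 1 was lower: Fmod, for fibromodulin, at 103 ± 25.5 CPM in MEC-like and 6.28 ± 2.80 CPM in fibroblast-like cells. Against duct-like cells 2 of the 9 were higher in MEC-like cells, Fmod (7.31 ± 0.51) and Prelp (5.07 ± 0.30), the latter a proteoglycan that anchors basement membranes to connective tissue, at 299 ± 45.8 CPM in MEC-like and 302 ± 11.9 CPM in fibroblast-like cells. Aspn, for asporin, had no UMI in either epithelial class and was at 475 ± 269.6 CPM in mural-like cells.

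Among the other families, 1 of 4 further CCN genes was tested: Ccn4 was at 66.8 ± 15.3 CPM in duct-like cells and 4.97 ± 1.33 CPM in MEC-like cells (-3.80 ± 0.48 for MEC-like cells). Of 4 further thrombospondin genes 2 were tested, and both, Thbs2 and Thbs3, were higher in fibroblast-like than in MEC-like, duct-like, mural-like and endothelial-like cells. Thbs2 was at 160.2 ± 69.2 CPM in fibroblast-like cells. Of 5 further genes of the SPARC family 2 were tested, and Fstl1 was higher in fibroblast-like than in each other class, at 632 ± 88.5 CPM. Of the 5 fasciclin and fibulin genes, all were lower in both epithelial classes than in fibroblast-like cells. The tenascin and osteopontin list had 1 gene tested, Tnxb, at 237 ± 53.4 CPM in fibroblast-like cells, where it was higher than in MEC-like, duct-like, mural-like and endothelial-like cells.

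Of 9 receptor genes tested, 3 were higher and 4 lower in MEC-like than in fibroblast-like cells, where 41.6% of all genes were called. In MEC-like against duct-like cells 3 were higher and 1 lower, where 24.3% of all genes were called. Itgav, for the integrin αV subunit that binds CCN proteins, periostin and fibronectin, was at 147 ± 37.0 CPM in MEC-like, 77.1 ± 16.6 in duct-like and 12.8 ± 6.2 in endothelial-like cells. Lrp1, an endocytic receptor that clears thrombospondin and CCN2, was at 687 ± 99.0 CPM in fibroblast-like cells and 124 ± 33.3 CPM in MEC-like cells. Cd36, a thrombospondin receptor of microvessels, was at 67.3 ± 30.5 CPM in endothelial-like and 52.6 ± 65.7 CPM in mural-like cells, and at 0 in both epithelial classes. Of 6 other YAP and TEAD targets tested, 2 were higher and 1 lower in MEC-like than in duct-like cells (24.3% of all genes called), and 3 were higher and 3 lower in duct-like than in fibroblast-like cells (47.4% called).

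Within the fibroblasts 3 subsets were named, of which adventitial and parenchymal cells were tested against each other. Of the 2878 fibroblast-like cells, 788 could not be named and were left out of the subsets. An unnamed cluster of 502 cells among them had Fn1 among its leading genes. Adventitial fibroblasts, the Pi16 and Dpp4 cells of vessel sheaths, had 3 members higher and 6 lower than parenchymal fibroblasts, with 25.7% of 2591 genes called (12.1% higher, 13.7% lower). Fn1 was at 3735, 3094 and 3327 CPM in the adventitial cells and at 37.9, 221 and 116 CPM in the parenchymal ones (5.16 ± 0.37, adjusted p = 3.38e-11). Postn was at 615, 85.2 and 48.2 CPM against 10.4, 11.5 and 0 CPM (5.55 ± 0.43, adjusted p = 1.23e-10). Its male adventitial values rest on few UMIs, from 36 and 51 cells. Sparc was higher as well (1.18 ± 0.18, adjusted p = 1.08e-05). Of the 1851 fibroblast UMIs of Fn1 in the female library, 1185 lay in the 112 adventitial cells.

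The opposite order held for the proteoglycans, Thbs1 and Ccn2. Bgn was at 31.5, 227 and 96.4 CPM in adventitial and 1506, 2144 and 1855 CPM in parenchymal fibroblasts (-4.68 ± 0.34, adjusted p = 3.38e-11), and Dcn at 10462, 9481 and 10462 CPM against 20121, 21762 and 19989 CPM (-1.03 ± 0.15, adjusted p = 7.27e-06). Thbs1 was at 12.6, 0 and 0 CPM against 242.5, 324 and 330.3 CPM (-4.60 ± 0.49, adjusted p = 3.38e-08). Ccn2 had no UMI in adventitial fibroblasts of any library, and with a floor of 3 UMIs over the subset the parenchymal level was at least 12.6-fold higher. Sparcl1 and Smoc2 were also called lower, but Smoc2 was higher in the adventitial cells of male library 1 and was not called without the female library (-0.76, adjusted p = 0.614), where Sparcl1 and Postn fell under the filter on low counts and 6 members were called. Beside these results, the 16 immediate early and dissociation genes summed to 5679 ± 262 CPM in adventitial and 25478 ± 2931 CPM in parenchymal fibroblasts, and 14 of the 16 were called lower in the adventitial cells. The part of dissociation in the lower Thbs1 and Ccn2 was not tested within the subsets. Without the library block 5 members were called.

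A small subset of 112 fibroblasts that expressed Pdgfrl, Mfap4, Fxyd6 and Cilp, named Pdgfrl+ after the first of them, had the highest levels of several members among the 3. Sparc reached 20524, 23316 and 23087 CPM there and Bgn 4522, 4920 and 5143 CPM, above both other subsets in each library. Ccn2 was at 550.2, 727 and 800 CPM and Smoc2 at 844, 642 and 514 CPM. These values are given without a test.

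**Figure D3:**
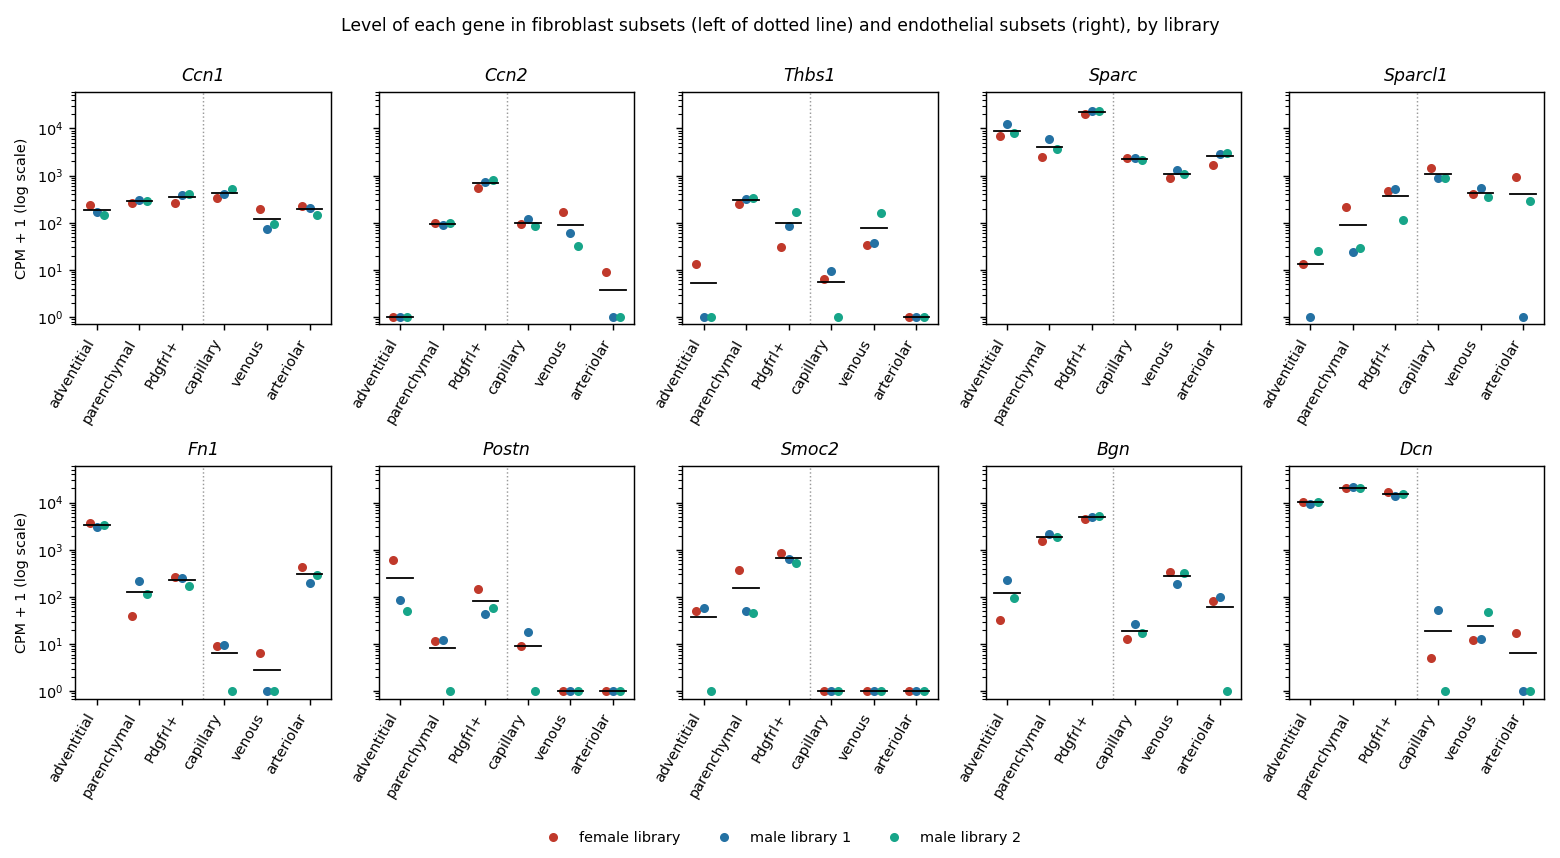
Level of each gene (CPM + 1, log scale) in 3 fibroblast subsets, left of the dotted line, and 3 endothelial subsets, right of it, with 1 point per library and a line at the mean. Ccn2 is at 0 in adventitial fibroblasts of all 3 libraries, and Bgn in venous endothelial cells (189 to 332 CPM) lies above the capillary values (12.1 to 25.4 CPM).

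Among endothelial cells, venous and capillary cells were tested against each other. Of the 1781 endothelial-like cells, 684 could not be named as a subset and were left out. Of the 6 members tested, venous cells, which carry the adhesion genes Selp, Ackr1 and Vcam1, had 1 higher and 3 lower than capillary cells, with 23.2% of 2912 genes called (13.8% higher, 9.44% lower). Bgn was at 332, 189 and 316 CPM in venous and 12.1, 25.4 and 16.5 CPM in capillary cells (4.57 ± 0.41, adjusted p = 4.5e-27). The fibroblast markers summed to 8.02 ± 7.89 CPM and the mural markers to 105 ± 50.4 CPM in venous cells, against 17.4 ± 1.2 and 67.4 ± 41.8 CPM in capillary cells. Sparcl1 was at 403, 531 and 347 CPM in venous and 1432, 872.5 and 892.5 CPM in capillary cells (-1.12 ± 0.25, adjusted p = 8.28e-05), a call that was lost with DESeq2 (-0.99, adjusted p = 0.513) and without the library block (-1.11, adjusted p = 0.164). Sparc (-0.88 ± 0.21, adjusted p = 0.00034) and Ccn1 (-1.20 ± 0.27, adjusted p = 0.000114) were lower in venous cells in each library. With total UMIs in place of TMM factors the median over all genes in this comparison moved from -0.01 to -0.45, and the same 4 members were called. Arteriolar cells (117 cells), given without a test, had Fn1 at 432, 201 and 292 CPM, against 8.05, 8.47 and 0 CPM in capillary cells. The male arteriolar values rest on few UMIs, from 19 and 18 cells. Of the 67 endothelial UMIs of Fn1 in the female library, 54 lay in the arteriolar cells.

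Duct-like cells fell into 6 clusters, for which no basal or luminal name could be given from the markers, so they are described by number and leading genes, without a test. Cluster 2, led by C3, Vcan, Tagln and Acta2, had the highest Smoc2 (1483, 1297 and 1243 CPM) and Dcn (178, 181 and 222 CPM) and, on average, the highest Postn (549.5 ± 67.5 CPM) and Ccn2 (513 ± 98.5 CPM). Dcn and Acta2 are among its own leading genes. The fibroblast markers summed to 11.3 ± 11.1 CPM in this cluster, against 2.30 to 52.4 CPM in the other duct-like clusters. The mural markers were higher in it, at 60.5 ± 45.0 CPM against 1.23 to 5.19 CPM in the others, and so was Sparcl1, at 32.7 ± 43.5 CPM from 16 UMIs against 0 to 1.25 CPM. The part of the mural markers in the levels of this cluster was not tested. The MEC list summed to 5899 ± 1023 CPM there, within 3707 to 5928 CPM in the other duct-like clusters, against 15277 CPM in MEC-like cells. That list holds Krt5 and Krt14, which are also duct markers, so its sum cannot tell whether the contractile genes were raised. Tagln, Igfbp2, Myl9 and Acta2 are among the leading genes of both this cluster and the MEC-like cells. The part of MEC-like RNA in the levels of this cluster was not tested.

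Cluster 3, led by the stress and early genes Cxcl1, Gadd45b, Atf3 and Nr4a1, had the highest Ccn1 (2564, 1801 and 1623 CPM) and, on average, the highest Thbs1 (589.9 ± 307 CPM). The 16 early and dissociation genes summed to 65564 ± 12634 CPM in it and to 16349 ± 941 CPM in cluster 1, where Ccn1 was at 488, 356 and 511 CPM. Clusters 2 and 5, with 48049 and 51131 CPM of these genes, lay between them in Ccn1 (1151 and 1190 CPM). Cluster 6 came almost wholly from the female library (87 of its 90 cells), so its male points rest on 2 cells and 1 cell.

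**Figure D4:**
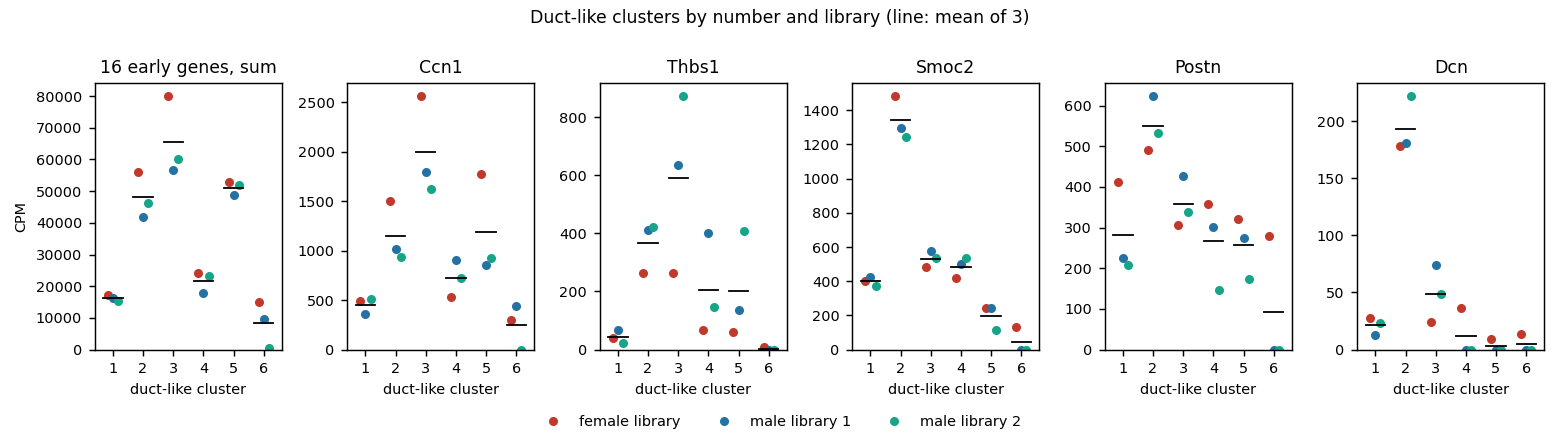
Summed level of 16 immediate early and dissociation genes and levels of 5 members (CPM, linear axes from 0, a scale per panel) in duct-like clusters 1 to 6, with 1 point per library and a line at the mean. Ccn1 and the early genes are both highest in cluster 3, whereas Smoc2 and Dcn are highest in cluster 2.

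With 1 female pool and 2 male pools, sex, pool and capture cannot be told apart and no test was made, but some members were far from equal across the libraries. In fibroblast-like cells the female library was above both male libraries for Smoc2 (365.5 against 68.4 and 78.7 CPM), Sparcl1 (201 against 50.4 and 33.3 CPM) and Postn (100 against 30.6 and 21.2 CPM), and below them for Sparc. In the parenchymal subset the same order was seen for Smoc2 (375 against 48.8 and 44.0 CPM) and Sparcl1 (214 against 23.0 and 27.5 CPM). It was also seen for Postn in the adventitial subset, where the male values rest on few UMIs. In empty droplets the female library also had more Smoc2 (12.1 against 1.57 and 0.681 CPM) and Sparcl1 (23.1 against 5.76 and 4.09 CPM), while the female fibroblast-like cells had the smaller share of free RNA (31.96% against 53.7% and 59.4%). Smoc2 in duct-like cells, in contrast, was even across the libraries. Ccn1 in fibroblast-like cells was even as well, at 235.5, 272 and 239 CPM.

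The share of cells with a UMI broadly followed the levels across the classes. After thinning to 500 UMIs, Sparc was found in 65.9%, 45.7%, 36.2% and 32.3% of fibroblast-like, mural-like, MEC-like and endothelial-like cells on average over the libraries, against no lymphoid-like cell of any library, where 0 cells allow shares of up to 1.26%, 3.66% and 2.03%. Ccn1 was found in 27.0%, 14.2% and 15.0% of duct-like cells of the 3 libraries, with 95% exact binomial intervals of 24.4 to 29.7%, 10.7 to 18.5% and 11 to 19.8%, and in 0.345%, 0% and 0% of lymphoid-like cells. The 500 UMIs include tear products, which took 31.6%, 55.3% and 54.6% of the duct-like UMIs in the 3 libraries. Thinned shares are therefore not matched between libraries in the UMIs of other genes. Without thinning the duct-like shares were 60.5%, 38.8% and 34.8%, which follow the median depth of 3727.5, 1683.5 and 1311 UMIs. In MEC-like cells, Ccn1 and Ccn2 were found together in 175 of 938 cells, with Ccn2 in 54.9% of cells with a Ccn1 UMI and 33.9% of those without, and the median depth was 2121 and 1756 UMIs in these cells. Intervals cover counting error only.

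The genes most like each member were taken as the 3 with the highest Pearson correlation of log2(CPM + 20) over 27 profiles (9 classes in 3 libraries, so that the points share libraries and free RNA), among 10211 genes with at least 200 UMIs. For Sparc they were Col4a1 (r = 0.987), Col4a2 and Serpinh1, which encode basement membrane collagen chains and a collagen chaperone. For Dcn they were Mmp2 (0.968), Igfbp6 and Spon1, for Bgn Steap4 (0.958), Fbn1 and Ntf3, and for Fn1 Ms4a4d (0.975), Adamts5 and Srpx. Sparcl1 was most like Synm (0.956), which encodes an intermediate filament protein of muscle, then Nhsl2 and Filip1, and Postn most like Slc2a4, Palld (0.948) and Phlda3. Smoc2 was most like F3 (0.966), Pdpn and Gadd45a, and Thbs1 most like Tppp3 (0.886), Arl3 and Fos. Ccn1 and Ccn2 were each among the 3 nearest genes of the other (0.932), with Tsc22d1 near both.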

How the data were processed

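Counts of UMIs per gene and barcode were deposited by the authors as raw and filtered matrices for each of 3 libraries. The submitters' processing notes name Cell Ranger 6.1.2 and mm10, and the annotation release was not given in the sources used here. The filtered matrices held the raw counts of the called barcodes unchanged. Barcodes with at least 500 UMIs, at least 200 genes and under 15% mitochondrial UMIs were kept, and 646, 287 and 315 probable doublets were removed with Scrublet scores at 0.8% per 1000 barcodes. Libraries were integrated and clustered with Seurat 5.3.0 (3000 features, 30 dimensions, resolution 1), with the members, their relatives and tear-product, mitochondrial and early genes left out, and clusters were named from marker lists. UMIs were summed per class and library into 15 sums and tested in 1 edgeR 4.0.16 fit (quasi-likelihood test, filterByExpr, TMM, library as block, Benjamini-Hochberg adjustment over all genes of a contrast). The class sums of a library come from 1 cell suspension, which is why library was a block. Adventitial against parenchymal fibroblasts and venous against capillary cells were tested in the same way, each in a fit of the 3 subsets of its class. A script run on simulated counts gave median fold changes near those put in. These counts were drawn without library effects or free RNA, for genes past the filter, so they do not show how the test does on the present data.

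All 10 members were named, with, from each list of relatives, the 2 called genes with the largest change in a comparison and further genes chosen after their values were seen (Prelp, Thbs3, Itgav, Lrp1, Cd36, Fos and Atf3). The members and lists were chosen with earlier results of these data known. Chosen after seeing the data were the empty-droplet profile of free RNA (uncalled barcodes with 500 or more UMIs, in place of the planned 10 to 100 UMIs), 8 acinar genes added to the tear-product list, and the limits for naming subsets. Alternatives were total UMIs for TMM, DESeq2 1.42.0, no filter, no block, each library left out, free RNA subtracted, more doublets removed, a mitochondrial limit of 5%, clustering at resolution 0.5, cells with a low share of dissociation genes and, added after seeing the data, another order of genes before integration. A floor of 3 UMIs stands for a count of 0, and intervals are exact binomial ones.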

Additional observations from a re-analysis of the deposited data

Results flagged for a closer look

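In 10 comparisons the female library moved one way and both male libraries the other, on the log2(CPM + 20) scale. With 1 female library the difference was not tested, and none of these comparisons was called over the 3 libraries. The widest was Thbs1 in fibroblast-like against mural-like cells, at 1.72 in the female library and -0.82 and -0.67 in male libraries 1 and 2, where the female mural-like sum held 4 UMIs of Thbs1. Thbs1 in duct-like against fibroblast-like cells was at -0.37 in the female and 0.51 and 0.72 in the male libraries, and Ccn2 in venous against capillary endothelial cells at 0.74 against -0.81 and -0.99.

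The other 7 were smaller or rested on few UMIs. Ccn1 was at -0.56 against 0.10 and 0.43 in fibroblast-like against mural-like cells, and at 0.23 against -0.13 and -0.58 in mural-like against endothelial-like cells. Ccn2 was at -0.39 against 0.66 and 0.39 in mural-like against endothelial-like cells, and at -0.13 against 0.01 and 0.90 in fibroblast-like against endothelial-like cells. Fn1 was at -0.56 against 0.79 and 0.88 in mural-like against endothelial-like cells, and at -0.21 against 0.44 and 0.33 in MEC-like against duct-like cells, where both classes held few UMIs. Sparc was at -0.09 against 0.11 and 0.02 in MEC-like against endothelial-like cells.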

How the results depend on the processing

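Of 93 called member results, 73 were called in the same direction under every one of the 14 settings that could be run for them, and no called result changed direction. Counts of called members changed by more than 1.5 times in 4 cases. Without the replicate block, mural-like against endothelial-like cells had 3 called members and adventitial against parenchymal fibroblasts 5 (5 and 9 with it), and Postn was not tested in the latter. DESeq2 also called 3 members in mural-like against endothelial-like cells. With the free RNA of barcodes with 10 to 100 UMIs subtracted, MEC-like against mural-like cells had 4 called members (7 otherwise). The block changed 13 calls in all and DESeq2 12, and the cause was not tested.

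With each library left out in turn, the counts of called members ranged from 8 to 9 for MEC-like against duct-like and against endothelial-like cells, 9 to 10 against fibroblast-like and 5 to 7 against mural-like cells. They ranged from 9 to 10 for duct-like against fibroblast-like and against endothelial-like cells, 6 to 8 against mural-like cells, 7 to 8 for fibroblast-like against endothelial-like and 4 to 5 for mural-like against endothelial-like cells. Fibroblast-like against mural-like cells kept 7, venous against capillary cells 4, and adventitial against parenchymal fibroblasts had 6 to 9, the 6 being without the female library. Without that library 8 calls were lost, among them Fn1 in MEC-like and duct-like against endothelial-like cells and Smoc2 in MEC-like against fibroblast-like cells (-0.73, adjusted p = 0.0993), and 2 were gained, Thbs1 in duct-like against fibroblast-like cells (0.54, adjusted p = 0.0146) and Fn1 in duct-like against mural-like cells (-5.66, adjusted p = 0.0493). Without male library 2, Postn (1.00, adjusted p = 0.0118) and Dcn (3.22, adjusted p = 0.00383) were gained in duct-like against mural-like cells.

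Directions changed only for values not called in either setting. With total UMIs, Sparc in MEC-like against endothelial-like cells was 0.21 and Ccn1 in fibroblast-like against endothelial-like cells 0.016, while the median of all genes reached 0.36 in MEC-like against mural-like cells. With DESeq2, Fn1 was 0.35 in MEC-like against duct-like and 0.082 in mural-like against endothelial-like cells, and Smoc2 in the latter 2.61. With free RNA subtracted, Fn1 in MEC-like against duct-like cells was 3.78, and in mural-like against endothelial-like cells Smoc2 was 0.14 (0.16 with empty droplets) and Dcn -0.086. Under the mitochondrial limit of 5%, Ccn2 was 0 in fibroblast-like against mural-like and 0.11 in mural-like against endothelial-like cells. In cells with a low dissociation share, Fn1 in MEC-like against duct-like cells was 0.55, in MEC-like against mural-like cells 3.89 and in duct-like against mural-like cells 3.34. There Thbs1 was -0.69 in duct-like against fibroblast-like cells, -0.75 in duct-like against mural-like cells and -0.066 in fibroblast-like against mural-like cells, and Smoc2 in mural-like against endothelial-like cells was 0.19.

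Leaving out 1 library turned the direction of 9 values that were called neither with all libraries nor where they turned. They ranged from -1.59 to 3.61 for Fn1 in MEC-like against duct-like cells and from -0.073 to 0.54 for Thbs1 in duct-like against fibroblast-like cells. In fibroblast-like against mural-like cells, Ccn1 ranged from -0.087 to 0.66 and Thbs1 from -0.40 to 0.95, and in fibroblast-like against endothelial-like cells Ccn2 from -0.094 to 0.48. In mural-like against endothelial-like cells the ranges were -0.49 to 0.33 for Ccn2, -0.79 to 1.38 for Fn1, -2.33 to 0.002 for Smoc2 and -1.12 to 1.78 for Dcn.

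In an alternative added after the data were seen, genes were in byte order before ties among integration features were broken, and clusters were built again. Counts of called members stayed at 9, 10, 7 and 9 for the 4 comparisons of MEC-like cells and at 4 for venous against capillary cells, and no call was gained or lost, although capillary cells rose from 583 to 988 and venous cells from 397 to 557. Fn1 in venous against capillary cells turned from -0.55 to 0.36 and was called in neither. With CPM over all UMIs, 10 of 10 members kept their highest class. The planned comparison of basal-type with luminal-type duct cells was not run, because no duct-like cluster could be named from the markers, and the subsets were not rebuilt at resolution 0.5. The 148 mural-like cells limit every comparison with that class.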
